A study of Mus musculus with 12 samples.

Results

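The Toll-like receptors Tlr1, Tlr2, Tlr3, Tlr4, Tlr6, Tlr7, Tlr8, Tlr9 and Tlr13 and their adaptor Myd88 were taken by symbol from a table of read counts for mouse skin. All 10 genes were among the 55453 in the table, and all 10 were among the 18311 with enough counts to be tested. Skin came from female C57BL/6 mice, 3 in each of 4 groups: wild-type mice given PBS (WT PBS) or bleomycin (WT BLM), and Thy1-knockout mice given PBS (KO PBS) or bleomycin (KO BLM). Bleomycin is a drug used to make skin fibrotic. Bleomycin or PBS was injected under the skin at 2 spots on the back, and the skin was taken on day 21. Each library thus holds whole skin and not a purified cell type. No conditional allele or Cre driver is named for the knockout. Thy1 itself was still counted in the KO mice, at 45.6 to 96.9 CPM (counts per 1000000 of the normalised library) in KO PBS and 84.7 to 128 CPM in KO BLM mice. The WT mice had 104 to 150 CPM under PBS and 231 to 416 CPM under bleomycin, so a count of this gene does not by itself check the genotype. The libraries held 26473700 to 38890450 counts, and a member was counted between 10 times (Tlr1 in a WT PBS mouse) and 2592 times (Myd88 in a WT BLM mouse).

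Toll-like receptors are sensors of the innate immune system. Tlr1, Tlr2, Tlr4 and Tlr6 sit at the cell surface and recognise lipids and lipoproteins of microbes, as well as some products of damaged tissue, with Tlr2 working in pairs with Tlr1 or Tlr6. Tlr3, Tlr7, Tlr8, Tlr9 and Tlr13 sit in endosomes and recognise nucleic acids. All of these except Tlr3 signal through Myd88, an adaptor that recruits the IRAK kinases and leads to NF-κB and to the transcription of cytokines; Tlr3 uses Ticam1, and Tlr4 uses both. In skin the receptors are best known from macrophages and dendritic cells, while keratinocytes and fibroblasts also carry some of them.

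In the GENCODE annotation of GRCm38, Tlr1 (chr5:64924679-64933563) and Tlr6 (chr5:64952031-64960097) are neighbours on the minus strand of chromosome 5, 18467 bp apart. Tlr7 and Tlr8 lie 40599 bp apart on the minus strand of the X chromosome, which also carries Tlr13. Tlr9 and Myd88 share chromosome 9 with Thy1, at distances of 62174019 and 75287355 bp from it. Exons of Myd88 share 290 bp with exons of Acaa1a on the opposite strand, and Tlr3 shares 381 bp with the antisense gene Gm45542. The use of strand in counting is not given in the sources used here, so reads in those stretches cannot be assigned with certainty. Acaa1a was counted at 62.3 to 100 CPM across the 12 mice, whereas Gm45542 had at most 1 count in a mouse.

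Growing hair set some libraries apart. A list of growing hair genes (19 of 20 measured), which mark the growth phase of the follicle, summed to 49155 to 74721 CPM in the WT PBS mice and to 26.5 to 816 CPM in the WT BLM mice. KO PBS mouse 136 had 80200 CPM against 17.3 and 199 CPM in the other KO PBS mice, and KO BLM mouse 141 had 38035 CPM against 3528 and 6041 CPM in its group. In the WT mice, therefore, treatment and hair phase cannot be told apart. Results for the KO mice are given with and without mouse 136 where it changed a call. Without mouse 136, treatment and hair phase cannot be told apart in the KO mice either. The remaining KO PBS mice were below every KO BLM mouse in growing hair RNA, the reverse of the WT order. A list of 12 macrophage markers summed to 637 to 1246 CPM in the WT mice given PBS and to 2545 to 3716 CPM in those given bleomycin. In the KO mice the sums were 675 to 2425 CPM with PBS and 1854 to 2542 CPM with bleomycin. Mouse 136 was the lowest of the KO PBS group for these markers too. In whole skin, a change in the number of cells that carry a receptor and a change in its RNA per cell cannot be told apart.

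Per kilobase of exon, Myd88 was the most abundant of the 10 in every group, at 15.8 ± 1.01 (SD, n = 3) CPM per kb in WT mice given PBS and 26.1 ± 5.97 in those given bleomycin. The KO mice had 17.9 ± 2.09 and 25.2 ± 4.40, and its lowest mouse was above the highest of the next gene each time. Tlr2 ranked next in all 4 groups, from 1.64 ± 0.235 CPM per kb in WT PBS to 11.8 ± 3.04 in WT BLM. In WT PBS its mice overlapped those of Tlr3, which had 1.59 ± 0.102 CPM per kb. In both BLM groups Tlr2 stood clear of the next gene, Tlr13. The other receptors formed a series in which most neighbours in the order overlapped, between 0.197 ± 0.152 CPM per kb (Tlr1) and 0.990 ± 0.476 (Tlr7) in WT PBS. Tlr13 was below all members but Tlr1 in WT PBS, at 0.523 ± 0.274 CPM per kb, and below none but Myd88 and Tlr2 in WT BLM, at 5.99 ± 1.31. The lowest receptor was Tlr1 in both WT groups and Tlr6 in both KO groups.

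To find which receptors differed between bleomycin and PBS in mice with Thy1, WT BLM was compared with WT PBS. Of the 10 genes, 9 rose and none fell in edgeR's quasi-likelihood test at a Benjamini-Hochberg adjusted p under 0.05, while 19.8% of all genes tested were called higher. The median log2 fold change was 2.15 over the 10 genes and 0.02 over all genes tested. In all 10 genes the 3 WT BLM mice lay above the 3 WT PBS mice, which was true of 28.3% of all genes tested. The macrophage markers moved with them (9 of 12 rose), as did the skeletal muscle markers (6 of 7 rose). Of 19 growing hair genes 9 fell, beside 2589 of all 18311 genes tested. The part of the macrophage and muscle markers in the receptor values was not tested, and a fit with the hair list as a covariate is given below.

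Among the surface receptors, Tlr2 had 4.70, 4.41 and 5.76 CPM in the WT PBS mice and 34.5, 27.0 and 45.2 CPM in the WT BLM mice. Every treated mouse was thus several times above every control, and the log2 fold change was 2.84 ± 0.37 (SE, n = 3 per group, adjusted p = 0.00314, edgeR). Its partner Tlr1 was the rarest of the 10 in controls, with 0.338, 0.395 and 1.25 CPM, and reached 2.51, 6.75 and 5.35 CPM after bleomycin. That rise had a log2 fold change of 2.85 ± 0.65 (adjusted p = 0.0121, edgeR) but rested on only 10 and 12 counts in 2 of the controls. The other partner, Tlr6, went from 1.93, 2.30 and 3.26 CPM to 7.24, 10.2 and 11.2 CPM, a log2 fold change of 1.93 ± 0.43 (adjusted p = 0.0110, edgeR). Tlr4, the receptor for lipopolysaccharide, rose least of the surface group. It had 3.48, 4.70 and 6.95 CPM in controls and 10.5, 18.1 and 11.7 CPM in treated mice (log2 fold change 1.41 ± 0.40, adjusted p = 0.0254, edgeR).

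Among the endosomal receptors, Tlr13, which senses bacterial ribosomal RNA, had the largest fold change of the 10. It had 1.08, 2.24 and 3.44 CPM in the WT PBS mice and 19.3, 28.3 and 29.8 CPM in the WT BLM mice. The log2 fold change was 3.51 ± 0.66 (adjusted p = 0.00693, edgeR), and the lowest treated mouse was far above the highest control. Tlr9, the receptor for unmethylated CpG DNA, went from 1.93, 2.53 and 4.13 CPM to 12.8, 18.5 and 24.5 CPM (log2 fold change 2.69 ± 0.51, adjusted p = 0.00700, edgeR). The single-stranded RNA receptors Tlr7 and Tlr8 lie side by side on the X chromosome and differed by similar folds. Tlr7 had 2.13, 3.98 and 6.01 CPM against 11.7, 24.1 and 21.7 CPM (log2 fold change 2.24 ± 0.54, adjusted p = 0.0149, edgeR). Tlr8 had 1.39, 3.03 and 4.31 CPM against 7.83, 17.9 and 10.9 CPM (log2 fold change 2.07 ± 0.64, adjusted p = 0.0331, edgeR). Tlr3, the double-stranded RNA receptor and the one that does not use Myd88, was the exception: it had 7.95, 7.99 and 8.89 CPM in controls and 10.8, 16.3 and 13.6 CPM after bleomycin, a log2 fold change of 0.71 ± 0.26 that missed the threshold (adjusted p = 0.0596, edgeR), although DESeq2 called it (adjusted p = 0.0456).

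Myd88 had 39.6, 39.0 and 43.7 CPM in the WT PBS mice and 57.4, 59.6 and 85.0 CPM in the WT BLM mice. The groups did not overlap and the rise was called, but its log2 fold change of 0.72 ± 0.18 (adjusted p = 0.0161, edgeR) was the smallest among the 9 that rose. The plot of CPM by mouse shows the 10 genes side by side.

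**Figure D1:**
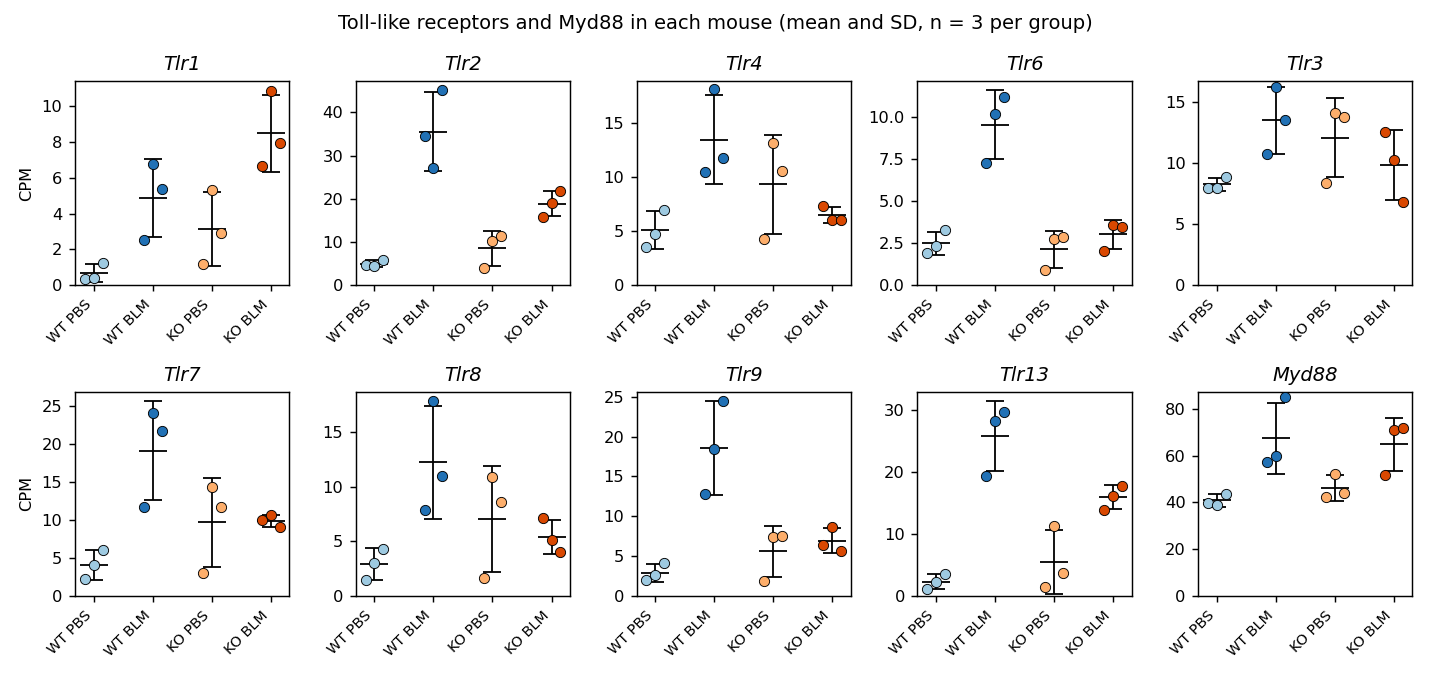
CPM (vertical axis, from 0, each panel with its own scale) of the 9 Toll-like receptors and Myd88 in the 4 groups (horizontal axis); points are mice, bars the mean and SD of 3 mice. In every panel the 3 WT BLM mice lie above the 3 WT PBS mice, and the lowest KO PBS point in each panel is mouse 136.

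The WT result rested on a small control group. Without WT PBS mouse 159 the count of rises fell from 9 to 3 (Tlr2, Tlr9 and Tlr13), and without WT PBS mouse 160 to 4 (those 3 and Tlr6). The share of all genes called higher fell from 19.8% to 9.15% and 8.35% in the same fits. Tlr2, Tlr9 and Tlr13 passed in all 12 fits that left out a mouse, and no log2 fold change turned negative in them. With the mean of the growing hair list as a covariate, none of the 10 passed and 0.0382% of all genes were called higher. The log2 fold changes were still above 0 in that fit, from 0.37 for Myd88 to 1.94 for Tlr13.

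In the KO mice, the same comparison of bleomycin with PBS called none of the 10 genes in edgeR at an adjusted p under 0.05, with 0.306% of all genes tested called. At an unadjusted p under 0.05 there were 4 (Tlr1, Tlr2, Tlr13 and Myd88), beside 20% of all genes tested in either direction. DESeq2 called 1, Tlr2, beside 5.95% of the genes it tested in either direction. The median log2 fold change over the 10 genes was 0.40, beside −0.01 over all genes tested, with 7 values above 0 and 3 below. The KO BLM mice lay above the KO PBS mice without overlap for Tlr1, Tlr2 and Tlr13, 3 of the 10 genes, which held for 10.8% of all genes tested.

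Tlr2 had 3.92, 10.2 and 11.4 CPM in the KO PBS mice and 15.8, 19.1 and 21.7 CPM in the KO BLM mice, with a log2 fold change of 1.15 ± 0.35 (adjusted p = 0.147, edgeR). Tlr13 had 1.46, 11.2 and 3.64 CPM against 13.9, 16.1 and 17.7 CPM (1.54 ± 0.61, adjusted p = 0.202, edgeR). Tlr1 had 1.20, 5.31 and 2.92 CPM against 6.67, 10.9 and 7.95 CPM (1.43 ± 0.60, adjusted p = 0.221, edgeR). In each of these the KO PBS mice were more widely spread, relative to their mean, than the KO BLM mice. Myd88 had 42.1, 52.3 and 44.0 CPM against 51.8, 71.1 and 71.8 CPM (0.49 ± 0.18, adjusted p = 0.176, edgeR), and here 1 KO BLM mouse fell within the range of the controls. Tlr4 gave the lowest value of the 10. It had 4.22, 13.1 and 10.6 CPM in KO PBS and 7.35, 6.05 and 5.97 CPM after bleomycin, with a log2 fold change of −0.53 ± 0.40 (adjusted p = 0.466, edgeR). Tlr7 had 3.02, 14.3 and 11.7 CPM against 9.92, 10.6 and 9.05 CPM, a log2 fold change of 0.03 ± 0.52 (adjusted p = 0.981, edgeR). For Tlr4, Tlr7 and Tlr8 the KO PBS group thus spanned the whole KO BLM group. The remaining values were 0.49 for Tlr6, 0.31 for Tlr9, −0.29 for Tlr3 and −0.39 for Tlr8. Without KO PBS mouse 136, Tlr2 passed in this comparison (adjusted p = 0.0459, edgeR) and the other 9 did not. In that fit 9.25% of all genes were called higher, and the KO PBS mice had less growing hair RNA than every KO BLM mouse.

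**Figure D2:**
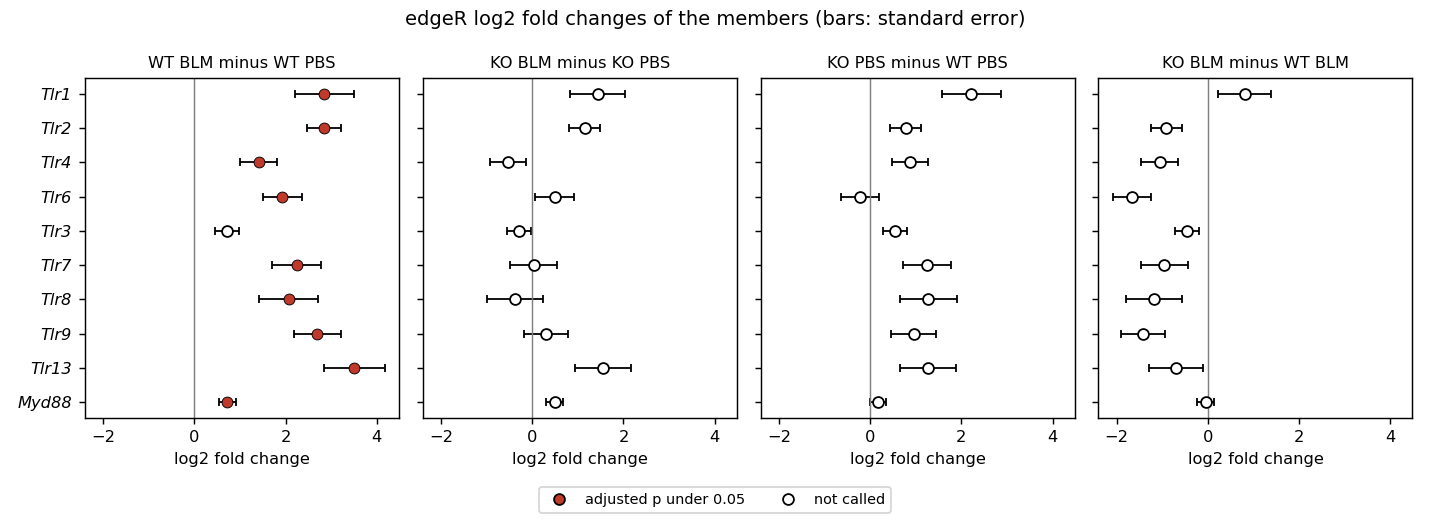
edgeR log2 fold changes (horizontal axis) of the 10 genes (vertical axis) in the 4 comparisons between groups; points are fitted values, bars the standard error, and filled points have an adjusted p under 0.05. Filled points occur in WT BLM minus WT PBS alone, where 9 of 10 were called.

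The genotypes were then compared within each treatment. Under PBS, KO mice differed from WT mice by a called amount in none of the 10 genes in edgeR, with 0.0655% of all genes tested called. An unadjusted p under 0.05 was found for 3 (Tlr1, Tlr2 and Tlr7) and for 20.4% of all genes tested. DESeq2 called 1, Tlr1, and 3.69% of the genes it tested. Both shares count either direction. The median log2 fold change, KO minus WT, was 0.92 over the 10 genes and 0.02 over all genes tested, and 9 of the 10 values were above 0. Tlr1 had the largest, 2.22 ± 0.64 (adjusted p = 0.204, edgeR). Tlr6 was the only value below 0, at −0.22 ± 0.42 (adjusted p = 0.754, edgeR). The 3 KO PBS mice were not alike. In mouse 136 the 9 receptors summed to 26.6 CPM, within the 24.9 to 44.0 CPM of the WT PBS mice, whereas the KO PBS mean was 62.9 ± 32.5 CPM and the highest mouse reached 89.3 CPM. None of the 10 genes separated the 2 groups when all 3 KO PBS mice were used, against 8.62% of all genes tested that were higher without overlap.

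Without mouse 136, 8 of the 10 genes were called higher in KO PBS than in WT PBS (all but Tlr6 and Myd88), with 17.8% of all genes called higher in that fit. The values were 2.60 ± 0.58 for Tlr1 (adjusted p = 0.00783, edgeR), 1.12 ± 0.22 for Tlr2 (adjusted p = 0.00503, edgeR) and 1.73 ± 0.46 for Tlr8 (adjusted p = 0.0159, edgeR), among others. Tlr3 had the smallest called value, 0.75 ± 0.24 (adjusted p = 0.0355, edgeR). The KO PBS mice 137 and 139 lay above all WT PBS mice for 9 of the 10 genes, all but Tlr6, which held for 35.4% of all genes tested. Those mice also had little growing hair RNA (17.3 and 199 CPM) and more macrophage marker RNA (2425 and 1956 CPM) than the WT PBS mice. The same held for skeletal muscle markers, at 23238 and 20922 CPM against 4674 to 5175 CPM, and dermal fibroblast markers, at 18108 and 14282 CPM against 5824 to 7936 CPM. The part of these in the receptor values was not tested.

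**Figure D3:**
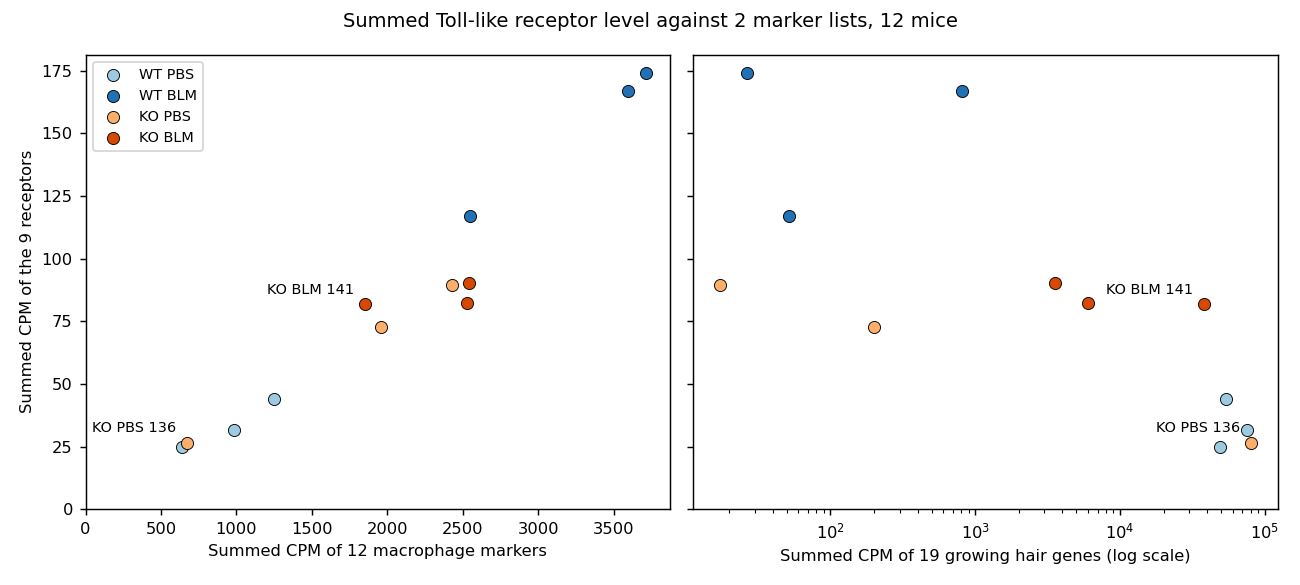
Summed CPM of the 9 receptors (vertical axis) against the summed CPM of 12 macrophage markers (left) and of 19 growing hair genes on a log axis (right); each point is a mouse, coloured by group. KO PBS mouse 136 lies among the WT PBS mice in the left panel and just beyond the highest of them, at 80200 CPM, on the hair axis, and the WT BLM mice are the 3 highest points, at 117 to 174 CPM.

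Under bleomycin the direction was the opposite for most receptors. In KO BLM minus WT BLM, 9 of the 10 values were below 0 and the median was −0.94, beside −0.03 over all genes tested. edgeR called none of the 10, with 0.0928% of all genes tested called. An unadjusted p under 0.05 was found for 4 (Tlr2, Tlr4, Tlr6 and Tlr9) and for 16.6% of all genes tested. DESeq2 called 1, Tlr6, and 2.99% of the genes it tested. Both shares count either direction. All 3 KO BLM mice lay below all 3 WT BLM mice for 7 of the 10 genes (Tlr2, Tlr4, Tlr6, Tlr7, Tlr8, Tlr9 and Tlr13), which was true of 12.9% of all genes tested. The macrophage markers did not overlap either (1854 to 2542 CPM in KO BLM, 2545 to 3716 CPM in WT BLM). Nor did the growing hair genes (3528 to 38035 CPM against 26.5 to 816 CPM). With the growing hair list as a covariate none of the 10 was called, beside 0.12% of all genes in either direction. The part of the macrophage markers in the receptor values was not tested. Together the 9 receptors summed to 84.8 ± 4.82 CPM in KO BLM and 153 ± 31.1 CPM in WT BLM.

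Tlr6 had the lowest value of the 10 here: 2.02, 3.60 and 3.43 CPM in KO BLM against 7.24, 10.2 and 11.2 CPM in the WT mice (log2 fold change −1.66 ± 0.42, adjusted p = 0.207, edgeR). Tlr9 had 6.43, 8.68 and 5.62 CPM against 12.8, 18.5 and 24.5 CPM (−1.43 ± 0.49, adjusted p = 0.251, edgeR). Tlr8 had 7.07, 5.09 and 3.99 CPM against 7.83, 17.9 and 10.9 CPM (−1.18 ± 0.62, adjusted p = 0.349, edgeR). The values of Tlr4, Tlr7, Tlr2 and Tlr13 were −1.06, −0.96, −0.91 and −0.70. Tlr3, at 12.5, 10.2 and 6.86 CPM in KO BLM, overlapped WT BLM. Myd88 did not follow the receptors, at 64.9 ± 11.3 CPM in KO BLM and 67.3 ± 15.4 CPM in WT BLM (−0.05 ± 0.18, adjusted p = 0.890, edgeR). Tlr1 alone was above 0, at 0.80 ± 0.59 (adjusted p = 0.481, edgeR). Without KO PBS mouse 136, a library outside this comparison that enters the shared estimate of spread, Tlr2, Tlr6 and Tlr9 were called lower, with 3.11% of all genes called lower.

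The difference between the bleomycin responses of KO and WT mice was below 0 for all 10 genes, with a median of −1.82 beside −0.05 over all genes tested. None passed in edgeR, where 0% of all genes tested were called. At an unadjusted p under 0.05 there were 8 of the 10, all but Tlr1 and Myd88, beside 31.1% of all genes tested in either direction. DESeq2 called 5 lower (Tlr2, Tlr4, Tlr7, Tlr8 and Tlr9). It called 17.8% of the 18245 genes it tested in either direction, and 1858 of them lower. The lowest adjusted p values were those of Tlr2 (−1.70 ± 0.49, adjusted p = 0.0778, edgeR), Tlr9 (−2.38 ± 0.69, adjusted p = 0.0782, edgeR) and Tlr4 (−1.94 ± 0.56, adjusted p = 0.0782, edgeR). Myd88 was nearest to 0 (−0.23 ± 0.25, adjusted p = 0.535, edgeR). Without mouse 136, 8 of the 10 were called lower (all but Tlr1 and Myd88), in a fit in which 19.5% of all genes were called lower. Among the mice of that fit, hair phase separated the treatments in both genotypes, in opposite directions. With the growing hair list as a covariate none of the 10, and 0% of all genes, passed. Whether a difference between the genotypes was called thus depended on the tool and on that mouse.

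**Figure D4:**
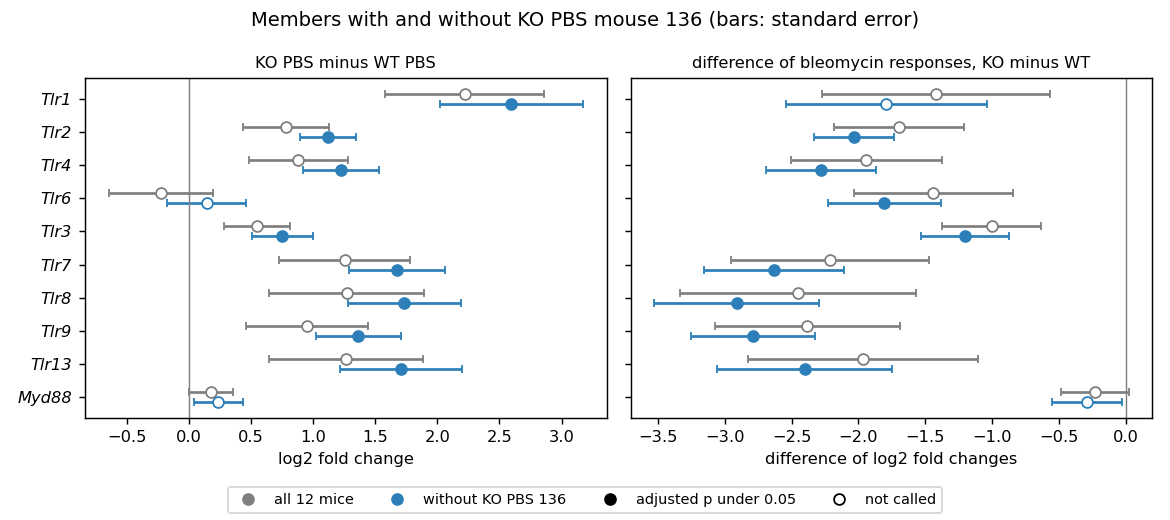
edgeR values with their standard error (bars) for the 10 genes with all 12 mice (grey) and without KO PBS mouse 136 (blue), for KO PBS minus WT PBS (left, log2 fold change) and for the difference between bleomycin responses (right); filled points have an adjusted p under 0.05. Without the mouse 8 of 10 points are filled in each panel, and with it none.

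Tlr1 and Tlr6 differed from the other receptors in how they varied with genotype, a pattern picked out after the values were seen. Their products each pair with Tlr2, and their coding sequences are almost alike toward the 3′ end: over 910 bases of the longest transcripts, which hold 8 identical runs of at least 40 bases, only 10 bases differ (98.9% identity). The longest identical run, 229 coding bases, is shown because a read within it cannot be assigned to either gene by its sequence. It lies at chr5:64925537-64925765 in Tlr1 and at chr5:64953828-64954056 in Tlr6 (GRCm38, minus strand), printed 5′ to 3′ from the GENCODE transcripts:

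Tlr1 and Tlr6: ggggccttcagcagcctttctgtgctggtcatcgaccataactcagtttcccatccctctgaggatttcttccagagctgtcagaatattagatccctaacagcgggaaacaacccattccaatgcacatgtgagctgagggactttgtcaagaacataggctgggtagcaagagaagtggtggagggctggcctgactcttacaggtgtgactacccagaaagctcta

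Of the distinct 50-base windows pooled over all annotated transcripts of each gene, 454 were found in the other gene. They made up 13.6% of those of Tlr1 and 12.3% of those of Tlr6, so some of the counts of both genes are uncertain.

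The ratio of Tlr1 to Tlr6 counts was 0.175, 0.171 and 0.383 in the WT PBS mice and 0.346, 0.661 and 0.477 in the WT BLM mice. In the KO mice it was 1.38, 1.96 and 1.03 under PBS and 3.30, 3.03 and 2.32 under bleomycin. All 6 KO mice, mouse 136 among them, thus had more Tlr1 than Tlr6 counts, and all 6 WT mice had fewer. Of the 45 pairs of the 10 genes, 5 had a ratio that separated the 6 KO from the 6 WT mice, and each of those 5 pairs held Tlr1 or Tlr6. More of the 45 pairs, 10, had a ratio that separated the 6 BLM from the 6 PBS mice. The share among pairs of all genes was not computed, so these counts are a description. The sum of Tlr1 and Tlr6 did not separate the genotypes: it was 3.16 ± 1.19 CPM in WT PBS, 5.28 ± 3.01 in KO PBS, 14.4 ± 4.05 in WT BLM and 11.5 ± 2.90 in KO BLM. Averaged over both treatments, the difference of KO from WT was 1.51 ± 0.43 for Tlr1 (adjusted p = 0.520, edgeR) and −0.94 ± 0.30 for Tlr6 (adjusted p = 0.621, edgeR), so neither was called, with 0.158% of all genes tested called in that contrast. Their unadjusted p values were 0.00549 and 0.00937, and the other 8 values lay between −0.24 and 0.28.

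**Figure D5:**
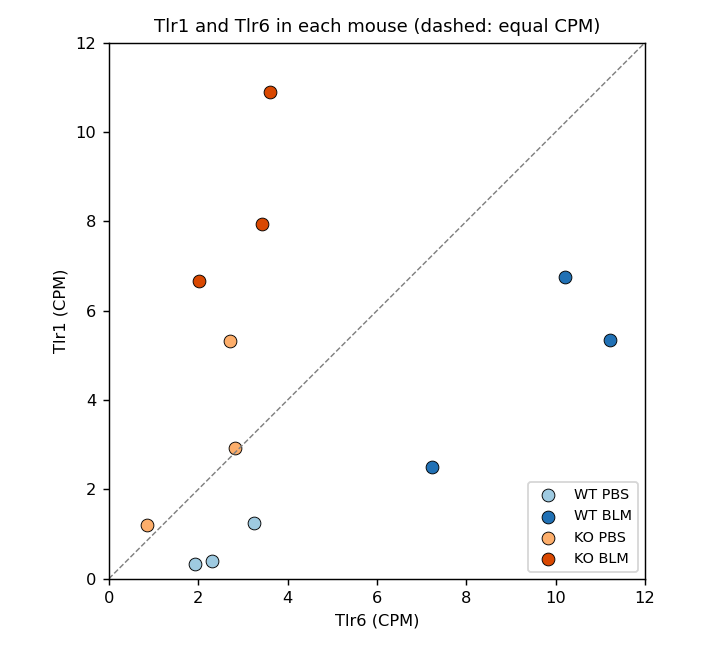
Tlr1 CPM (vertical axis) against Tlr6 CPM (horizontal axis) in each of the 12 mice, coloured by group, with a dashed line where the values are equal. The 6 KO mice lie above the line and the 6 WT mice below it.

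Within 1 Mb of Tlr1 and Tlr6, 26 genes were tested, and 1 of them, the unnamed gene model Gm3716, separated the genotypes by CPM. It had 8 to 27 counts in the WT mice and at most 4 in the KO mice. It was thus among the genes tested through the WT mice alone, and its separation is a description. Across the genome 0.328% of the genes tested separated the 6 KO from the 6 WT mice in this way.

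After the values were seen, each gene was also set against the macrophage markers of the same mouse, as CPM per 1000 CPM of the 12 markers. On this scale Tlr6 was 2.34 to 3.02 in the 6 WT mice and 1.09 to 1.45 in the 6 KO mice, with little difference between treatments. It was the only one of the 10 whose genotypes did not overlap, which held for 0.126% of all genes tested. Tlr13 was the receptor that differed most with bleomycin on this scale, at 2.24 ± 0.532 in WT PBS and 7.82 ± 0.216 in WT BLM, and at 2.88 ± 1.52 in KO PBS and 6.95 ± 0.590 in KO BLM. The treated mice were above the controls in both genotypes. So were those for Tlr2, at 5.49 ± 1.63 and 11.1 ± 3.17 in WT mice and 5.28 ± 0.943 and 8.21 ± 0.599 in KO mice. In WT mice that gap was narrow, with 7.37 in the highest control and 7.51 in the lowest treated mouse. Tlr1 was higher without overlap in KO mice (1.82 ± 0.352 against 3.68 ± 0.572) and overlapped in WT mice (0.645 ± 0.316 against 1.43 ± 0.446). Tlr9 was higher after bleomycin in WT mice (2.97 ± 0.373 against 5.58 ± 0.878) and overlapped in KO mice (3.19 ± 0.563 against 3.04 ± 0.703). Tlr4 was 5.28 ± 0.434 in WT PBS and 4.11 ± 0.941 in WT BLM, which overlapped, but 5.69 ± 0.487 in KO PBS and 2.90 ± 0.918 in KO BLM, which did not. Myd88 and Tlr3 were lower on this scale after bleomycin in WT mice, Myd88 at 45.6 ± 14.5 in controls and 20.7 ± 3.54 in treated mice. Under bleomycin, KO mice were below WT mice without overlap for Tlr6, Tlr9 and Tlr13 and above them for Tlr1 and Myd88. Under PBS, this held for Tlr6 (below) and Tlr1 (above). The share of all genes that separate 2 groups of 3 mice on this scale was not computed, so these separations are descriptions.

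The markers of other cell types that can carry these receptors were measured in the same libraries. In WT BLM minus WT PBS, calls were made higher for 2 of 6 conventional dendritic cell markers, 2 of 4 plasmacytoid dendritic cell markers, 4 of 4 neutrophil markers tested of 6, 4 of 5 T cell markers, 1 of 2 B cell markers tested of 4 and 4 of 6 dermal fibroblast markers. For keratinocytes it was 1 of 5, for endothelial cells 2 of 4 and for Langerhans cells 0 of 2. The share of all genes tested called higher was 19.8%, so the shortest of these lists say little. The keratinocyte list summed to 7928 to 9734 CPM under PBS and 10895 to 28149 CPM under bleomycin in WT mice. None of these markers was called in the other 3 comparisons between groups, where at most 0.306% of all genes tested were called. The neutrophil list summed to between 4.05 and 4.93 CPM under PBS and between 20.9 and 46.4 CPM under bleomycin in WT mice. In KO mice it summed to 3.32 to 8.64 CPM and 12.5 to 28.9 CPM, and Ly6g had no more than 2 counts in any mouse. The B cell list stayed at 0.598 to 4.30 CPM in all mice. The plasmacytoid dendritic cell list summed to 22.5 to 28.3 CPM under PBS and 97.7 to 165 CPM under bleomycin in WT mice. In KO mice it summed to 23.8 to 116 CPM and 50.3 to 123 CPM. In each group the mouse with the highest sum also had the highest skeletal muscle sum. That muscle sum was 4674 to 5175 CPM in WT PBS and 16271 to 32812 CPM in WT BLM. The part of muscle in the plasmacytoid list was not tested, so its sum is not a measure of these cells alone. The part of any of the listed cell types in the receptor values was not tested.

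The rest of the pathway was read from lists of 64 genes, of which 63 were tested. In WT BLM minus WT PBS, 29 were called higher and 1 lower. Of all 18311 genes tested, 19.8% were called higher, and 2589 were called lower. The median log2 fold change was 0.55 over the pathway genes and 0.02 over all genes tested. Several short lists with few calls were near the share of all genes called higher. Of the other receptors, Tlr12 rose (1.37 ± 0.37, adjusted p = 0.0214, edgeR) and Tlr5 and Tlr11 did not pass. Of 6 co-receptors and ligand carriers 4 rose, led by Cd14, which hands lipopolysaccharide to Tlr4 (2.54 ± 0.40, adjusted p = 0.00440, edgeR), with Cd180 at 2.49 and Ly86 at 2.44. Of 4 chaperones 1 rose: Unc93b1, which carries the nucleic acid receptors to endosomes, from 49.0 ± 11.3 CPM to 193 ± 58.1 CPM (1.98 ± 0.41, adjusted p = 0.00864, edgeR). Of the 6 other adaptors 1 rose, Pik3ap1 (2.56 ± 0.56, adjusted p = 0.0106, edgeR).

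Further down, of 9 genes of the IRAK, TRAF and TAK1 complex, Irak2 (1.11) and Irak4 (0.76) rose and Tab3 fell by 0.67 on the log2 scale. Of 5 IKK and TBK1 kinases, Ikbke rose (1.06). Of 6 transcription factors, 3 rose: Irf7 (2.58), Irf5 (1.01) and Nfkb1 (0.55). Of 7 inhibitors 3 rose, each by a small amount: Sigirr (0.69), Cyld (0.56) and Irak3 (0.49 ± 0.15, adjusted p = 0.0345, edgeR). Of 6 receptors of the interleukin-1 family, which share Myd88, 3 rose: Il1rl1 (3.84), Il18rap (2.88) and Il18r1 (1.28). The induced cytokines and enzymes had the most calls, with 10 of 11 tested higher, led by the chemokines Ccl3, Cxcl2 and Ccl5, which attract leukocytes. The first 2 were near 0 in WT PBS, where Ccl3 had 1 to 2 counts a mouse and Cxcl2 0 to 3, against 40 to 100 and 17 to 52 counts in WT BLM, so the size of their fold is uncertain. Ccl5 had 6 to 28 counts against 140 to 263 (3.86 ± 0.68, adjusted p = 0.00561, edgeR). Il6, at no more than 19 counts in a WT mouse, did not pass.

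In the KO mice 1 of the 63 was called after bleomycin, beside 0.306% of all genes tested. It was Ccl3, with 1 to 7 counts in KO PBS and 43 to 187 in KO BLM (4.61 ± 0.71, adjusted p = 0.0387, edgeR). The median over the 11 cytokines and enzymes was 2.21 there and 2.45 in WT mice. By contrast, the median over the 9 receptors was 0.31 in KO mice and 2.24 in WT mice. These are descriptions, and the difference between the lists was not tested. Cd14 had a log2 fold change of 1.04 ± 0.38 (adjusted p = 0.179, edgeR) and Unc93b1 0.51 ± 0.39 (adjusted p = 0.476, edgeR) in the KO mice.

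The genotypes differed in 1 pathway gene of 63 within each treatment, and it was the same gene. Of all genes tested, 0.0655% were called under PBS and 0.0928% under bleomycin. Wdfy1, an endosomal protein that links Tlr3 and Tlr4 to Ticam1, had 13.1 to 16.8 CPM under PBS and 17.6 to 19.2 CPM under bleomycin in WT mice. In KO mice it had 36.9 to 40.4 CPM and 36.8 to 41.2 CPM. The 6 KO mice, mouse 136 included, were thus all above the 6 WT mice. The log2 fold change, KO minus WT, was 1.38 ± 0.12 under PBS (adjusted p = 8.82e-04, edgeR) and 1.06 ± 0.12 under bleomycin (adjusted p = 0.00697, edgeR). Bleomycin did not change it by a called amount in either genotype.

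For each of the 10 genes, the 3 genes with the most similar pattern were found among 13838 genes with a mean log2 CPM of at least 1, by the root mean square difference of centred log2 CPM over the 12 mice. The 12 mice share groups and libraries across genes, so a small difference is a description. The nearest genes were Ncf4, Cd14 and Glipr2 for Tlr2 (0.24 for each), Pld4, Cd200r1 and Dock2 for Tlr7 (0.15 to 0.19), Gm5431, Fcrls and Gm1966 for Tlr8 (0.17 to 0.20) and Themis2, Cyth4 and Pld4 for Tlr9 (0.22 to 0.26). Those of Tlr13 were Oas1a, Oas1g and Fcgr1 (0.28 to 0.32). For Tlr4 they were Slfn5, Zeb2 and Fndc3b (0.16 to 0.18), for Tlr3 Grk5, Etnk1 and Zfp287 (0.13 to 0.15), and for Myd88 Tmem219, Capg and Ogfr (0.09 to 0.10). The genes nearest to Tlr6 were Thy1 (0.31), Nav3 and Sulf1 (0.41 and 0.43). Thy1 is the gene targeted in the KO mice, and its counts were lower there within each treatment. Part of its pattern over the mice is therefore set by the design, and a likeness to it does not show shared regulation. By this measure Tlr1 had no close neighbour, with Clec4a2, Lst1 and Ms4a6d all at 0.69. By Pearson's r its nearest genes were Mgmt, Cela1 and Il2ra, each at 0.93.

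RefSeq promoter sequences (GRCm38.p6) were at hand for 8 of the 10 genes, all but Tlr4 and Tlr7. These genes had 10 promoter entries, because Tlr1 and Tlr6 had more than 1 each. A gene is named below if any of its entries held a match, whereas the shares count single entries. The matches of Tlr1 and Tlr6 were in 1 entry and not in the other. In the 250 bases before the start, the letters GAGGAAG, the core bound by the myeloid factor PU.1, occurred on either strand in Tlr1, Tlr9 and Tlr13, and in 10.6% of all 32851 promoters. The interferon-stimulated response element, searched as 2 GAAA half-sites with 2 free bases between them, occurred in Tlr6 and Myd88 and in 2.98% of all promoters, and the NF-κB pattern, GGGA and TTTCC with 1 free base between them, in Tlr3 and in 0.356%. Tlr13, Tlr9 and Myd88 are printed. Tlr13 is the receptor with the largest WT fold change, and Myd88 is the adaptor. Tlr9 is a receptor called in WT mice in every fit that left out a mouse. Tlr2 was also called in all of those fits, but held none of the 3 patterns and is not printed. The printed sequences thus all hold a match, which is not so for every member. The part outside annotated exons is given 5′ to 3′ with the matches in capitals.

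Tlr13, chrX:106143025-106143203, plus strand: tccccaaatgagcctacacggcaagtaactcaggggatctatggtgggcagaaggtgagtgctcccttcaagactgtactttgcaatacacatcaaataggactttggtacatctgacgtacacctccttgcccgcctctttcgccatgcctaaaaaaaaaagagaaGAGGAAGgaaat

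Tlr9, chr9:106222348-106222597, plus strand: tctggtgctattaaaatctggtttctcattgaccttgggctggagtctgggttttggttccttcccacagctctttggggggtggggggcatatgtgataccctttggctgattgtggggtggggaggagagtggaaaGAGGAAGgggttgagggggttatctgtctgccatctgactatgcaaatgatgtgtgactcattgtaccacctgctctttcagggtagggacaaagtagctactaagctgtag

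Myd88, chr9:119340042-119340268, minus strand: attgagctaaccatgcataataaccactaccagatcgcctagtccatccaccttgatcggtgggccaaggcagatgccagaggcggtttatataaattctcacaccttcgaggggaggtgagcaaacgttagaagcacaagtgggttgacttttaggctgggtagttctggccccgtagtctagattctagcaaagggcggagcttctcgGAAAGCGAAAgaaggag

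The match began 83 bases before the RefSeq start in Tlr13, 112 bases before it in Tlr9 and 40 bases before it in Myd88. A match of letters describes the sequence alone, and no binding was measured in these mice.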

How the data were processed

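Stranded mRNA libraries from skin of 12 female mice, 3 per group, were sequenced as read pairs, and the authors deposited read counts per gene, without normalization, in 1 table of 55453 symbols. The aligner, counter and annotation are not given in the sources used here; the submitters' processing notes name GRCm38.p6 and MultiQC 1.7. Groups were taken from the sample labels. The study's methods state that controls were littermates, but not which mice shared a litter, and a batch is not given in the sources used here.

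Counts were filtered with edgeR's filterByExpr (at least 10 counts in enough mice after scaling, 15 in total), which kept 18311 genes, normalised by TMM and fitted with edgeR 4.0.16 as 4 group means in one quasi-likelihood model (R 4.3.3); 4 comparisons and the difference between responses were tested, adjusted over all genes tested at 0.05. The library totals are given above; the biological coefficient of variation was 34.9%, and 0.1 is the smallest two-sided p of an exact permutation test with 3 mice a group. Log2 CPM used a prior count of 2. On simulated data for WT BLM minus WT PBS (18009 genes), 156 of 200 genes changed 4-fold were recovered and 6 others called. The simulation changed those 200 genes only, whereas 6222 of 18311 genes were called in the data. Its figures are therefore not error rates for this comparison.

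The members and lists were chosen with earlier results of these data known. All 10 members were described in every comparison; per pathway list at most 3 called genes with the largest change were named, besides Wdfy1, Cd14, Irak3 and Unc93b1. Gene positions came from GENCODE M21 and promoters from RefSeq; 7 letter patterns were searched and 3 are given. Alternatives were DESeq2 1.42.0, RLE and upper-quartile scaling, other filters, the 2 groups compared alone, each mouse left out, the hair list as a covariate, both KO mice with growing hair left out, and library sizes without hair and muscle genes. The ratio of Tlr1 to Tlr6, the scale per macrophage marker CPM and the contrast averaged over treatments were added after seeing the data.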

Additional observations from a re-analysis of the deposited data

How the results depend on the processing

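Counts of the 10 genes called were 9 in WT BLM minus WT PBS and 0 in the other 4 contrasts with RLE, upper-quartile scaling, no filter, a mean of at least 1 CPM and library sizes without hair and muscle genes. In WT, all genes called were then 6335 of 18311 with RLE and 6279 of 18311 with upper-quartile scaling. They were 5362 of 34689 without a filter, 5544 of 15216 at 1 CPM and 6533 of 18232 without hair and muscle genes. With the 2 groups alone WT gave 10 (44.6% of all genes) and the others 0. DESeq2 called 10 in WT (34.7% of its genes), 1 in KO BLM minus KO PBS, 1 in KO PBS minus WT PBS, 1 in KO BLM minus WT BLM and 5 in the difference of responses. With the hair covariate these counts were 0 in WT, 2 in KO BLM minus KO PBS (Tlr2 and Tlr13, 8.33% of all genes) and 0 in the rest. With both KO mice with growing hair left out they were 10, 1, 8, 1 and 8, where 49.0%, 22.3%, 40.9%, 4.36% and 38.6% of all genes were called. The percentages and the counts of all genes in this paragraph hold calls in both directions, whereas the called members of each contrast all moved 1 way. Leaving out each mouse gave 3 to 10 in WT, 0 to 1 in KO BLM minus KO PBS, 0 to 8 in KO PBS minus WT PBS, 0 to 3 in KO BLM minus WT BLM and 0 to 8 in the difference, and mouse 136 alone moved the last 4 from 0. All genes called in WT ran from 2615 of 18746 (without WT PBS mouse 160) to 8565 of 18739 (without mouse 136). Without mouse 136 the last 4 contrasts had 2632, 6870, 1292 and 7470 of 18739 genes called. The cause of the shift with mouse 136 was not tested.

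No call reversed. Signs turned only for values that had not been called. In KO BLM minus KO PBS, Tlr7 was −0.000567 with RLE, −0.0127 without a filter, −0.00982 with library sizes without hair and muscle genes and −0.40 without the KO mice with hair, and −0.40 to 0.42 leaving out a mouse. Tlr9 was −0.0535 without the KO mice with hair and −0.10 to 0.58 leaving out a mouse. Tlr8 was 0.22 with the hair covariate and −0.85 to 0.0766 leaving out a mouse. In KO PBS minus WT PBS, Tlr6 was 0.14 without the KO mice with hair and −0.48 to 0.15 leaving out a mouse, and with the hair covariate Tlr2 was −0.13, Tlr9 −0.13, Tlr13 −0.21 and Myd88 −0.0633. In KO BLM minus WT BLM, Myd88 was 0.0866 without the KO mice with hair, 0.17 with the covariate and −0.16 to 0.15 leaving out a mouse, and Tlr13 was 0.30 with the covariate. In the difference of responses with the covariate, Tlr1 was 0.19, Tlr6 0.18, Tlr13 0.51 and Myd88 0.24.

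Pearson's r in place of the root mean square difference kept 10 of the 30 nearest genes, Thy1 for Tlr6 among them. Library sizes without hair and muscle genes moved the summed CPM of the members by less than 1 SD in each group. No paired analysis was possible because every mouse has its own number, so no number is shared between groups. Depth limits Tlr1 most, at 10 to 49 counts in the WT PBS mice.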
